A study of Mus musculus with 90 samples.

Results

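The livers compared here are the 16 with the highest and the 16 with the lowest level of Cyp4a14 among 49 female mice given zileuton, 32 of the 90 livers in the series. The livers were chosen by their normalized Cyp4a14 signal in the deposited table, so the groups rest on a measured value and not on a label, and Cyp4a14 itself is left out of the results. All mice were females of the Diversity Outbred (J:DO) stock, an outbred population in which every animal has its own mixture of founder genomes, and were 6 to 20 weeks old. For 7 days, 49 of them took zileuton, an inhibitor of the leukotriene-forming enzyme 5-lipoxygenase, by mouth at 300 mg per kg each day, and 41 took sterile distilled water. One RNA library was made from 25 mg of liver of each animal. The labels give no founder genotype, liver pathology or blood value for any animal. Normalized Cyp4a14 signal ran from 60287 to 195084 in the high livers (median 91604) and from 3409.6 to 38544 in the low livers (median 20174), a 57.2-fold span from end to end. The cuts fall in a continuous series: the last high liver had 60287 and the first of the 17 livers between the groups 60129, while the last of those had 38553 and the first low liver 38544. In the vehicle livers the signal ran from 279 to 74608 (median 10849.6). Of these, 2 lay above the lowest high liver and 10 above the median of the low livers.

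Cyp4a14 encodes a cytochrome P450 that hydroxylates the far end of fatty acids. It is among the genes that respond most to PPARalpha, a nuclear receptor that pairs with RXR, is activated by fatty acids and by fibrate drugs, and in hepatocytes turns on the genes that bind, transport and oxidise fatty acids. Known PPARalpha targets in mouse liver include enzymes of peroxisomal and mitochondrial beta-oxidation, acyl-CoA thioesterases, lipid droplet proteins and, during fasting, Pdk4, Fgf21 and Angptl4. The gene lists below follow these roles.

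Total estimated counts were 12664579 to 34718911 per high liver and 19081557 to 32441393 per low liver. Hepatocyte markers such as Alb were abundant in all 32, their summed level being 97395 to 179313 CPM, the count scaled to library size, in low and 95857 to 153743 CPM in high livers. The summed level of 6 muscle markers was 1724 CPM in 1 low liver, zileuton replicate 24, and at most 2.30 CPM in any high liver. Its part in the results was not tested beyond leaving it out: without it 75 genes passed between the groups and 10 of the 80 calls described below were lost, among them Adamts10, Irf2, C1s1 and Pctp. Coat colour, animal number, position in the numbering, plate row, plate column and total count gave adjusted p-values of 0.273 to 0.879 between the groups (6 comparisons, Fisher's exact test for coat colour, otherwise two-sided permutation tests).

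The groups were not spread evenly over the animal numbers. When the numbers are cut into 8 consecutive runs of 50, whose meaning the labels do not give, runs 3 and 4 held 5 and 7 of the 16 low livers but 1 and 3 of the high livers, and runs 5, 6 and 8 held no low liver. Median Cyp4a14 in zileuton livers was 31852 (8 livers) and 26898 (12) in runs 3 and 4 against 117759 (2) and 103099 (4) in runs 5 and 6. Between these lay 51426 (6), 53687 (7), 29612 (4) and 61034 (6) in runs 1, 2, 7 and 8. In vehicle livers the medians were 5552, 12068, 16395 and 13261 in runs 3 to 6. They were 8774, 10741, 17967 and 9801 in runs 1, 2, 7 and 8. The main differences below are therefore followed by their value with run in the model, while in runs 5, 6 and 8 run and group cannot be told apart.

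**Figure D1:**
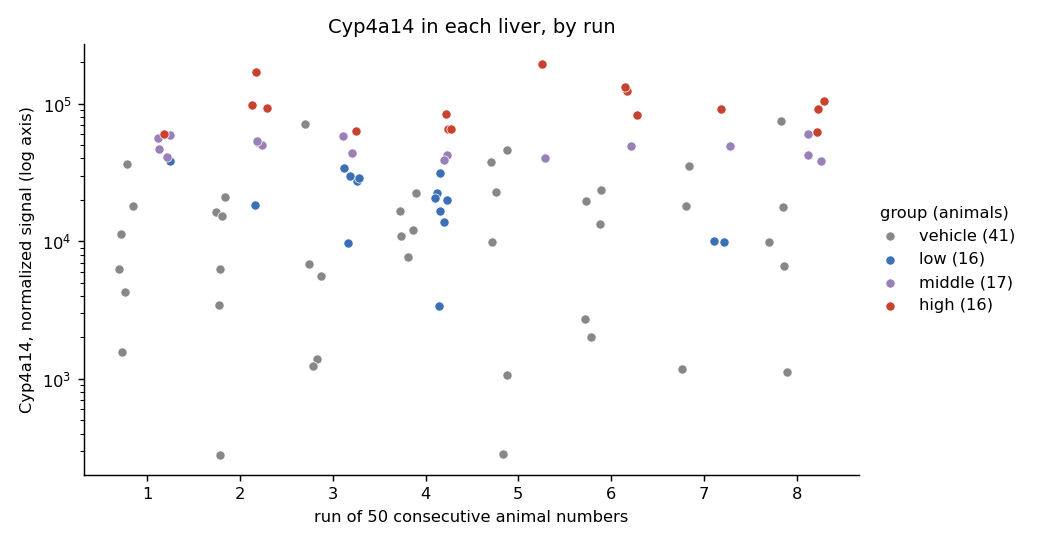
Normalized Cyp4a14 signal of each liver (log axis) against the run of 50 consecutive animal numbers, with vehicle in grey and the low, middle and high zileuton groups in blue, purple and red. The low livers crowd into runs 3 and 4 and are missing from runs 5, 6 and 8, while high livers occur in all 8 runs.

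High livers had more RNA for a broad set of fatty acid oxidation enzymes than low livers, and few genes were lower. In the edgeR quasi-likelihood fit, 80 of 12968 genes (0.617%) passed a Benjamini-Hochberg adjusted p of 0.05, 69 (0.532%) higher and 11 (0.0848%) lower in the high livers. Since the groups were formed from Cyp4a14, these calls describe the 32 livers and choose which genes to show. With run in the model, 0 genes passed (980 at an unadjusted p under 0.05). All 80 kept their sign and 67 had an unadjusted p under 0.05. In no tested gene were all 16 high livers above, or all below, all 16 low livers (0 of 12968, 0%).

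Among the relatives and neighbours of Cyp4a14, Cyp4a10 was the 1 of 6 tested genes past the threshold. Cyp4a10, another fatty acid omega-hydroxylase (chromosome 4, 115518264 to 115533649 on mm10, next to Cyp4a14), ran from 417 to 2288 CPM with a median of 954 in low livers and from 1452 to 4480.5 CPM with a median of 2736 in high livers. Every high liver exceeded the low median and 11 exceeded the highest low liver, so the groups overlap only in part. The log2 difference was 1.50 ± 0.21 (SE, n = 16 and 16), and 1.27 ± 0.28 with run. Cyp4a31 and Cyp4a32, close copies in the same cluster, differed by 0.42 ± 0.60 and 0.56 ± 0.44, and by 0.72 ± 0.89 and -0.057 ± 0.69 with run. Cyp4a12a and Cyp4a12b, forms more abundant in males, had log2 differences of 0.73 ± 0.76 and -0.42 ± 0.98 with wide ranges in both groups, and Cyp4b1 one of -0.36 ± 0.12. With run, 2 of the 6 differences were positive (list median -0.22) against 4 of 6 without it (median 0.49), and that of Cyp4a12a was -0.76 ± 1.30. Raw values were whole numbers in 89 of 90 animals for Cyp4a14 but in 10 for Cyp4a10 and 0 for Cyp4a31, as happens where reads are divided among near-identical copies, so the levels of single Cyp4a genes are uncertain. Of 20 tested genes within 1 Mb of Cyp4a14, Cyp4a10 was the only 1 past the threshold.

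Acyl-CoA thioesterases, which release free fatty acids from coenzyme A, held the largest positive difference among called genes with a mean of at least 1 CPM over the 32 livers. Acot1, the cytosolic form (chromosome 12, 84009490 to 84018371), ran from 25.2 to 155 CPM with a median of 48.8 in low livers and from 87.4 to 391 CPM with a median of 218 in high livers. The 16 high livers all exceeded the low median, and 11 exceeded every low liver. Its log2 difference was 1.97 ± 0.26, and 1.14 ± 0.25 with run. Acot2, the mitochondrial form encoded beside it (chromosome 12, 83987861 to 83993873), ran from 4.06 to 19.5 (median 8.94) CPM in low and 9.93 to 57.2 (median 27.2) CPM in high livers, a log2 difference of 1.63 ± 0.23 (0.69 ± 0.17 with run). No raw value of Acot1 or Acot2 was whole in any animal, so their separate levels are uncertain too. Acot8, a peroxisomal form, differed by 0.44 ± 0.088. Acot3, Acot4, Acot6 and Acot12 had positive differences short of the threshold (1.33, 0.61, 0.21 and 0.27), and with run those of Acot4 and Acot6 were -0.065 and -0.20. The list median was 0.61 over 7 tested members, beside -0.0044 over all genes tested, and 0.20 with run.

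Peroxisomal beta-oxidation shortens very long and branched fatty acids, and 8 of its 14 tested genes were past the threshold, all higher in high livers. Ehhadh, the peroxisomal bifunctional enzyme (chromosome 16, 21761287 to 21787807), ran from 253 to 1884 CPM with a median of 766 in low livers and from 976 to 4463 CPM with a median of 1786 in high livers. All high livers exceeded the low median and 7 exceeded every low liver. Its log2 difference was 1.37 ± 0.22, and 1.14 ± 0.28 with run. Acaa1b, a thiolase of the last step, had medians of 1303 and 2560.4 CPM in low and high livers and differed by 0.95 ± 0.17 (0.78 ± 0.19 with run). The auxiliary enzymes Eci2 and Decr2, which handle double bonds, differed by 0.63 ± 0.096 and 0.56 ± 0.095, the fatty acid importer Abcd3 by 0.60 ± 0.14 and the multifunctional enzyme Hsd17b4 by 0.29 ± 0.064. Pex11a, a peroxisome division factor, differed by 0.93 ± 0.20 without run but by 0.057 ± 0.15 with it. The other 6 members, among them Crot and the transporters Slc27a2 and Slc27a4, had positive differences of 0.12 to 0.61 short of the threshold. The list median was 0.58, and 0.30 with run.

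**Figure D2:**
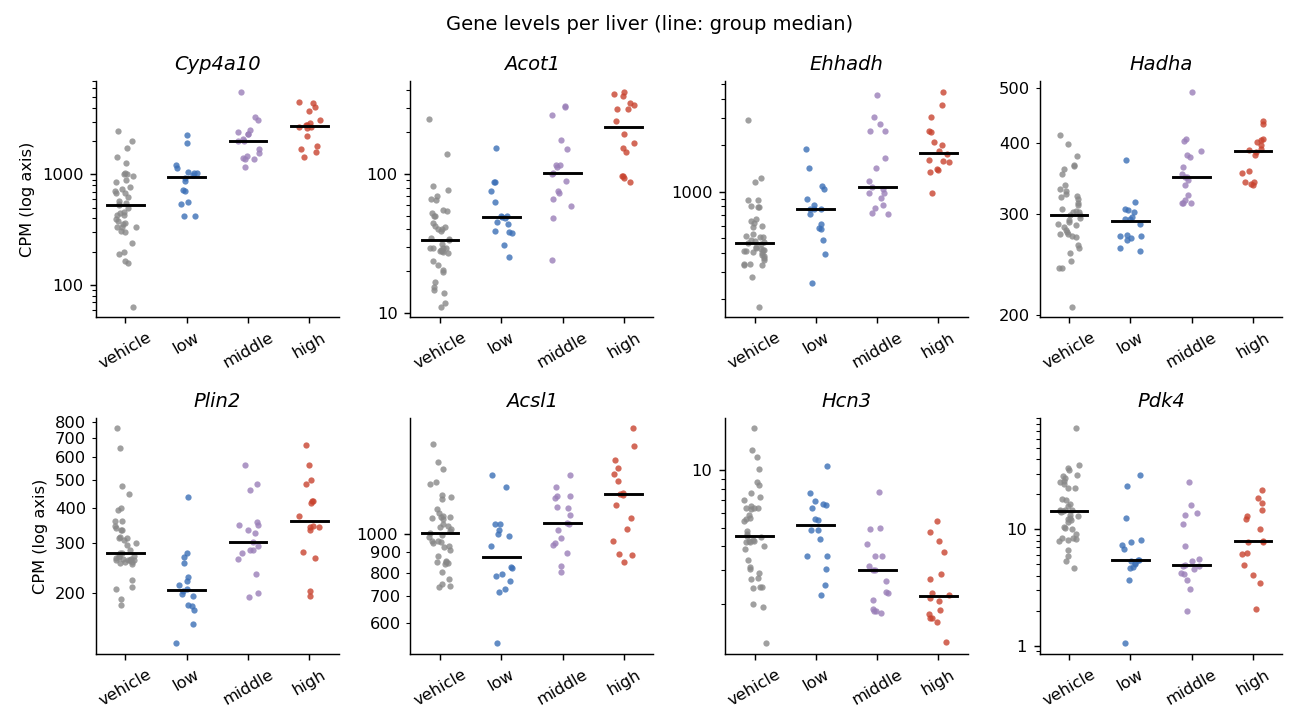
CPM per liver (log axes) in vehicle (41), low (16), middle (17) and high (16) livers, with the group median as a line, for Cyp4a10, Acot1, Ehhadh, Hadha, Plin2, Acsl1, Hcn3 and Pdk4. Cyp4a10, Acot1, Ehhadh and Hadha step upwards from the low to the high livers, Hcn3 steps downwards, and the low and high livers overlap in Pdk4.

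Mitochondrial beta-oxidation, the main route by which hepatocytes burn fatty acids, had smaller and more uniform differences: 9 of 17 tested genes were past the threshold, all higher. Hadha and Hadhb encode the subunits of the trifunctional protein, which carries out the last steps of the cycle on long chains. Hadha ran from 258 to 373 CPM with a median of 291 in low livers and from 337 to 437 CPM with a median of 387 in high livers, and 10 high livers exceeded every low liver. Although small, its log2 difference of 0.39 ± 0.050 was among the largest relative to its error, and it was 0.32 ± 0.058 with run. Hadhb ran from 123 to 215 (median 152) CPM in low and 156 to 271 (median 207) CPM in high livers, a difference of 0.47 ± 0.070 (0.40 ± 0.087 with run). Hadha and Hadhb lie head to head on chromosome 5 with 85 bases between their annotated ends, and because they move together that gap is shown, on the plus strand of GRCm38.p6 from RefSeq (chr5:30155163-30155247), with GGGCGG, the GC box bound by factors of the Sp family, in capitals.
Hadha-Hadhb gap: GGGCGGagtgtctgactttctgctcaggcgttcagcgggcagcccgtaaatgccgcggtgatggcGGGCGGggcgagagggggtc
The gap holds this motif 2 times. GGGCGG occurs, on either strand, in 35.7% of 32851 RefSeq promoter windows (250 bases before to 50 after the start), in 66.6% of the 10137 tested genes with a window, and in 42 of the 55 such genes among the 69 higher ones. The direct repeat of AGGTCA with 1 base between its copies (DR1), known as the PPARalpha-RXR element, was found on either strand in 13 of those windows and in 0 of the 55, which says only that these letters are not in these windows.

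Genes of fatty acid entry into the mitochondrion and of the first step of the cycle were also higher in high livers. Cpt2, the inner membrane carnitine transferase, had medians of 138 and 201 CPM in low and high livers, a log2 difference of 0.54 ± 0.094 (0.38 ± 0.10 with run), and Slc25a20, the carnitine carrier, differed by 0.50 ± 0.11 (0.19 ± 0.11). The acyl-CoA dehydrogenases Acadm, Acadl and Acadvl, for medium, long and very long chains, differed by 0.51 ± 0.095, 0.38 ± 0.069 and 0.33 ± 0.057. Acadvl was above every low liver in 13 of 16 high livers, and Acadm in 12. Decr1 and Eci1, which process unsaturated chains, differed by 0.60 ± 0.10 and 0.57 ± 0.12. Cpt1a, the outer membrane transferase that sets the rate of entry, did not pass (0.18 ± 0.11), nor did the electron transfer genes Etfa, Etfb and Etfdh (0.093, 0.15 and 0.25). The list median was 0.38, and 0.24 with run.

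The ketogenesis genes Acat1 and Bdh1 did not pass, with log2 differences of 0.28 ± 0.087 and 0.0046 ± 0.089. Among 14 tested genes of fatty acid uptake and lipid droplets, Plin2 and Mogat1 passed. Plin2, the main coat protein of hepatocyte lipid droplets, ran from 133 to 437 (median 205) CPM in low and 196 to 665 (median 360.0) CPM in high livers, a difference of 0.80 ± 0.15 (0.47 ± 0.15 with run); the groups overlap over most of their range. Mogat1, a monoacylglycerol acyltransferase of triglyceride synthesis, had medians of 1.67 and 8.38 CPM and a difference of 1.56 ± 0.31 (0.67 ± 0.40). Fabp1, the liver fatty acid binding protein, Vnn1, a pantetheinase, and Cd36, a fatty acid transporter, had differences of 0.52 ± 0.13, 1.20 ± 0.34 and 0.59 ± 0.21 that did not pass, and that of Cd36 was -0.11 with run.

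The receptor, its partners and several of its best known other targets made a list of 16 tested genes of the PPARalpha circuit. In the edgeR test 0 of the 16 passed in either direction, and 0 were called by DESeq2 and 0 by limma-voom. At an unadjusted p under 0.05 there were 2 of the 16, beside 1657 of all 12968 genes tested. A positive difference was seen in 7 of the 16 (list median -0.032). Ppara itself ran from 141 to 344 CPM with a median of 252 in low livers and from 152 to 358 CPM with a median of 233 in high livers, a log2 difference of 0.054 ± 0.13. The coactivator Ppargc1a and the partner Rxra differed by -0.18 ± 0.21 and -0.045 ± 0.071. Among fasting-responsive targets, Pdk4, which restrains glucose oxidation, had medians of 5.47 CPM in low and 7.88 CPM in high livers, a difference of 0.21 ± 0.34. The groups overlap over nearly their whole range, and with this error a difference as large as that of Plin2 could have gone undetected for Pdk4. Angptl4, an inhibitor of lipoprotein lipase, differed by -0.17 ± 0.28, and Fgf21, a fasting hormone with medians of 0.659 and 0.492 CPM, by -0.26 ± 0.34.

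Several other higher genes act in carnitine and lipid metabolism. Crat, the carnitine acetyltransferase, had medians of 49.9 and 95.7 CPM and differed by 1.05 ± 0.19 (0.44 ± 0.21 with run), and Slc22a5, the carnitine importer, had medians of 28.6 and 63.5 CPM and differed by 0.98 ± 0.17 (0.39 ± 0.14). Named after their values were seen, Retsat, a retinol saturase, differed by 0.91 ± 0.15, Ech1, a dienoyl-CoA isomerase, by 0.64 ± 0.11, Hsd17b11, a lipid droplet dehydrogenase, by 0.65 ± 0.15, and Aldh3a2, the fatty aldehyde dehydrogenase, by 0.54 ± 0.12. Others outside these roles were Chrna2, a nicotinic receptor subunit (1.47 ± 0.29), Kbtbd11 (1.71 ± 0.39), the export pumps Abcc3 (0.41 ± 0.089) and Abcc4 (1.00 ± 0.24) and Ect2, a cytokinesis factor (1.30 ± 0.30). With run, Abcc4 and Ect2 were at 0.23 ± 0.26 and 0.041 ± 0.26, and within run 4 alone (3 high and 7 low livers) Abcc4 and Pex11a had the other sign. Hsd17b11 lost its call in 7 of the 32 fits that left out 1 liver each and Aldh3a2 in 4, with log2 differences of 0.60 to 0.73 and 0.49 to 0.58. The call of Ect2 was lost without zileuton replicate 15, that of Kbtbd11 without replicate 12, 34 or 37, and that of Abcc4 without any 1 of 15 livers, with log2 differences of 1.20 to 1.41, 1.57 to 1.86 and 0.90 to 1.07 over the same fits.

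None of the 11 lower genes belonged to a gene list used here. Hcn3, a pacemaker channel, ran from 2.22 to 10.5 CPM with a median of 5.19 in low livers and from 1.25 to 5.42 CPM with a median of 2.18 in high livers, a log2 difference of -1.01 ± 0.21 (-0.82 ± 0.31 with run). Only 1 of the 16 high livers lay above the low median. Sdr9c7, a short-chain dehydrogenase, had medians of 47.5 and 24.8 CPM and differed by -0.95 ± 0.22, and Tmem200b by -1.02 ± 0.19 near 1 CPM. Mybl2, a cell cycle factor, had the largest negative value, -3.02 ± 0.57, but medians of 0.680 and 0.356 CPM and a maximum of 10.1 CPM in 1 low liver. Abundant lower genes were Apof, an apolipoprotein (-0.31 ± 0.066), C1s1, a complement protease (-0.32 ± 0.079), Lgals8, a galectin (-0.30 ± 0.055), Entpd8, an ectonucleotidase (-0.33 ± 0.076), and Irf2, an interferon regulatory factor (-0.34 ± 0.085). Bnip2 and Adamts10 differed by -0.23 ± 0.047 and -0.39 ± 0.092. Leaving out 1 liver ended the call of Sdr9c7 in 1 of 32 fits (zileuton replicate 15), Entpd8 in 5, Adamts10 in 11, C1s1 in 15 and Irf2 in 18, with no change of sign, and the other 6 kept theirs.

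Of the drug-responsive lists, 1 of 26 tested CAR and PXR targets (Abcc3) passed, with a list median of 0.13 (-0.043 with run). None passed among 6 AhR targets, where Cyp1a2 differed by 0.00053 ± 0.14, or among 19 NRF2 targets, where Gstm1 differed by 0.43 ± 0.18. Of the 19 NRF2 targets, 16 had a positive difference, beside 48.6% of all genes tested. Their list median was 0.35, and with run it was 0.049 with 11 positive. In the edgeR test 9 of the 19 were at an unadjusted p under 0.05 (4 with run), beside 1657 of all 12968 genes (980 with run). DESeq2 called 1 of them. None passed among genes of fatty acid synthesis (17), cholesterol synthesis (20), bile acids (12), fasting glucose (12), the unfolded protein response (14), the integrated stress response (9), the acute phase (17), injury (11) or growth hormone patterned genes (21). Leaving ketogenesis and the PPARalpha circuit aside, 24 lists had no call by edgeR, among them the clock and cell type lists. Over these 24, 43 of 249 tested members (counted once per list) were at an unadjusted p under 0.05, beside 1657 of all 12968 genes tested. DESeq2 called 9 of these members (243 over all genes) and limma-voom 0 (77 over all genes). All 12 fasting glucose genes had a negative difference (median -0.26), but with run 4 of the 12 were positive (median -0.16). In the edgeR test 2 of the 12 were at an unadjusted p under 0.05, and 1 with run. All 20 cell cycle genes had a positive difference, with a median of 0.48, but none passed. With run 14 of the 20 were positive and the median was 0.075. No marker of hepatocytes or of Kupffer, stellate, endothelial, bile duct, immune, muscle, fat, pancreas or gut cells passed. Of 7 hepatocyte markers, 1 had a positive difference (list median -0.18). The 3 tested genes of the fat and pancreas list had a median difference of -0.75 (-0.77 with run). Of these, 2 were at an unadjusted p under 0.05 and 1 was called by DESeq2. The summed level of that list was 1345 to 3124 CPM in low and 569 to 3031 CPM in high livers. Its most abundant tested member was Car3, with a difference of -0.41. Which cells carried this RNA was not tested, so the sum is not a measure of fat or pancreas tissue. All 8 endothelial markers had a negative difference, their summed level being 143 to 283 CPM in low and 136 to 243 CPM in high livers. Of 9 stellate markers 8 did as well, with summed levels of 189 to 488 and 176 to 345 CPM. The median difference was -0.25 for endothelial and -0.37 for stellate markers, and -0.30 for each with run. In the edgeR test 5 of 8 and 4 of 9 were at an unadjusted p under 0.05 (4 and 1 with run). DESeq2 called 1 endothelial and 0 stellate markers. The part of these markers in the results was not tested. In bulk tissue, fewer cells of a type and less RNA per cell cannot be told apart.

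Over all 49 zileuton livers, the slope on Cyp4a14 gave 249 genes past the threshold (1.78% of 14026), and 18 (0.124% of 14506) with run in the model. All 18 slopes were positive, and 16 of the 18 genes were among the 80. Among these were Cyp4a10, Acot1, Acot2, Ehhadh, Acaa1b, Eci2, Eci1, Hadha, Hadhb, Acadl, Acadvl, Crat, Ech1, Hsd17b11 and Retsat. Per doubling of Cyp4a14, and with run, Cyp4a10 differed by 0.59 ± 0.079, Ehhadh by 0.55 ± 0.090 and Hadha by 0.11 ± 0.022 on the log2 scale. These livers include those that formed the groups, so the slopes are a description. By rank, the genes most like Cyp4a14 over the 49 livers were Cyp4a10 (Spearman rho 0.84), Acot1 (0.77), Hadha (0.77), Eci2 (0.75) and Acadvl (0.75), and the most opposed were Bnip2 (-0.64) and Hcn3 (-0.59).

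**Figure D3:**
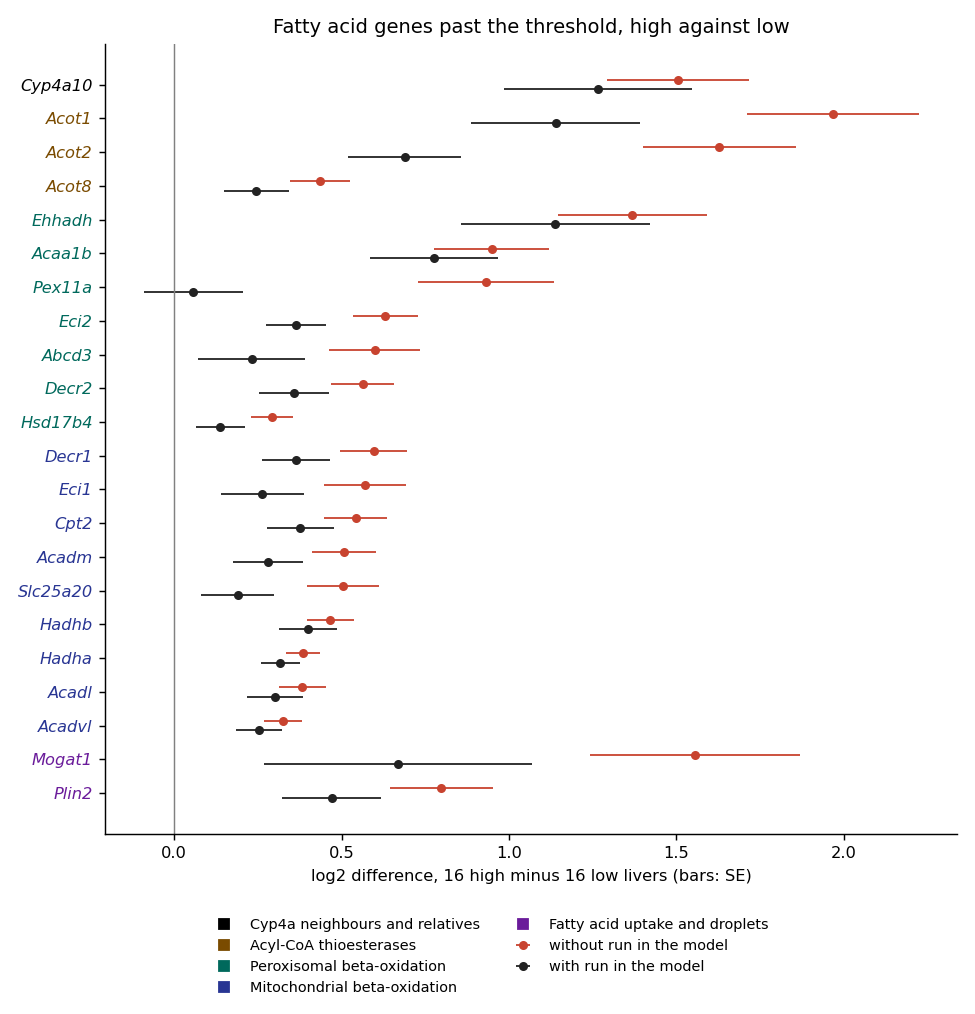
Log2 difference of high minus low livers (points, with SE bars) for genes of the fatty acid lists past the threshold, without run (red) and with run (black) in the model; the colour of a name gives its list. Every difference shown is smaller with run than without it, all remain above 0, and Pex11a comes closest to 0.

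Whether the same genes go with Cyp4a14 in animals that did not form the groups was tested in the 41 vehicle livers, as a slope per doubling of Cyp4a14. In the edgeR quasi-likelihood fit, 67 of 13837 genes (0.484%) passed, 46 (0.332%) rising and 21 (0.152%) falling with Cyp4a14. Of the 69 genes higher in high livers, 68 were tested here, and 66 of them (97.1%) had a positive slope, against 48.7% of all genes tested. Of the 11 lower genes, 8 had a negative slope. At an unadjusted p under 0.05, 54 of the 79 tested here had the same sign, beside 12.7% of all genes at that p in either direction. That count was 41 with a clock gene score in the model, 33 without the 2 livers highest in Cyp4a14, and 25 with run and clock score, beside 9.31%, 10.7% and 7.30% of all genes. In all, 15 genes passed in both with the same sign, 18.8% of the 80 and 22.4% of the 67, and 0 with opposite signs.

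Of those 15, 9 were in the fatty acid lists: 6 genes of beta-oxidation, 2 thioesterases and Cyp4a10. Cyp4a10 ran from 63.7 to 2476 CPM with a median of 525 over the 41 vehicle livers and rose by 0.35 ± 0.052 (SE, adjusted p = 3.04e-04) per doubling of Cyp4a14 on the log2 scale. Ehhadh ran from 178 to 2937 CPM with a median of 464 and rose by 0.23 ± 0.042 (SE, adjusted p = 0.00376). Acaa1b ran from 298 to 2901 CPM with a median of 1034 and rose by 0.21 ± 0.040 (SE, adjusted p = 0.0103). These 3 genes passed whichever 1 vehicle liver was left out, whereas Acot1 and Aldh3a2 did not without vehicle replicate 37 (Acot1 slope then 0.21), nor Acadl, Pctp and Hsd17b11 without replicate 15 (Acadl then 0.060). The thioesterases Acot1 and Acot2 rose by 0.27 ± 0.054 (SE, adjusted p = 0.0119) and 0.15 ± 0.036 (SE, adjusted p = 0.0353). The dehydrogenases Acadl and Acadm rose by 0.065 ± 0.013 (SE, adjusted p = 0.0131) and 0.084 ± 0.020 (SE, adjusted p = 0.0351), and Eci1 and Hsd17b4 by 0.12 ± 0.027 (SE, adjusted p = 0.0203) and 0.069 ± 0.016 (SE, adjusted p = 0.0351). Acaa1a, the other peroxisomal thiolase gene, rose by 0.15 ± 0.031 (SE, adjusted p = 0.0132) without passing between the zileuton groups, and by 0.13 without passing when vehicle replicate 15 was left out. Outside the fatty acid lists the shared genes were Abcc3, which rose by 0.12 ± 0.028 (SE, adjusted p = 0.0226), Aldh3a2, Hsd17b11, Pctp, a phosphatidylcholine transfer protein, and 5031439G07Rik, all rising, and Apof, which fell by 0.072 ± 0.015 (SE, adjusted p = 0.0142). Hadha and Hadhb had positive slopes of 0.042 ± 0.015 (adjusted p = 0.206) and 0.038 ± 0.014 (adjusted p = 0.228) that did not pass. Neither did Cpt2, with 0.058 ± 0.017 (adjusted p = 0.102), or Plin2, with 0.051 ± 0.032 (adjusted p = 0.501). Hcn3, with a slope of -0.0089 ± 0.066 (SE, adjusted p = 0.972), showed no detectable relation here. The calls of Acadm, Acot2 and Hsd17b4 were lost without any 1 of 8, 7 and 7 livers and that of 5031439G07Rik without any 1 of 24, with slopes of 0.072 to 0.092, 0.12 to 0.17, 0.059 to 0.075 and 0.072 to 0.096 over the 41 fits. Abcc3 lost its call without replicate 15, 28 or 37 (slope 0.097 at the lowest), Eci1 without 15 or 37 (0.11) and Apof without 9 or 15 (-0.063 at the closest to 0).

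**Figure D4:**
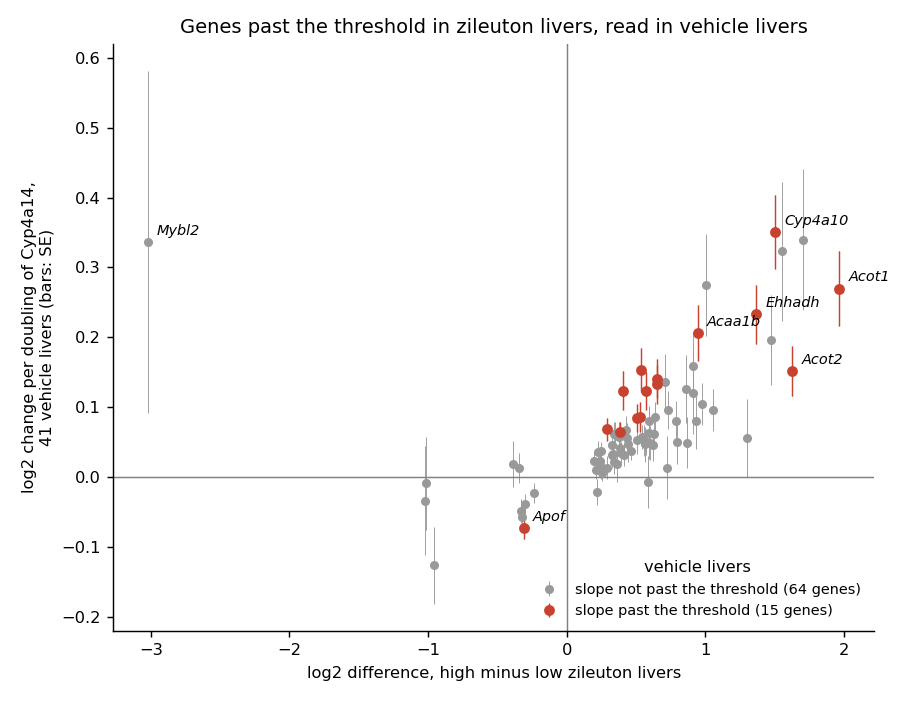
Log2 change per doubling of Cyp4a14 in 41 vehicle livers (vertical axis, SE bars) against the log2 difference of high minus low zileuton livers (horizontal axis) for the 79 of the 80 genes tested in both. The 15 genes in red also passed in vehicle livers; 66 of 68 genes to the right of 0 lie above 0, and Mybl2 at the far left lies above 0.

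The vehicle calls rested on few livers and were fewer with a clock gene score in the model. Without vehicle replicate 15 or 37, the livers with the highest Cyp4a14 in that group, 18 and 30 genes passed and 5 and 7 of the 15 kept their call. Without vehicle replicate 9 or 28, 32 and 38 genes passed and 10 of the 15 kept their call each time, and without vehicle replicate 25, 112 genes passed, all 15 among them. Without both vehicle replicates 15 and 37, 8 genes passed, of which 1 was shared, while 62 of 68 higher genes kept a positive slope. With run in the model, 24 genes (0.168% of 14268) passed, 8 of the 15 among them. A score of clock genes, the mean scaled level of a gene set minus that of a set of opposite phase, went with log2 Cyp4a14 over the 41 vehicle livers (Pearson r = 0.363, permutation p = 0.0196; Spearman rho = 0.319, permutation p = 0.0425; r = 0.357 without the 2 livers farthest in Cyp4a14). The score was not checked against a time of sampling. With that score in the model, 3 genes (0.0213% of 14080) passed, Cyp4a10 being the 1 shared gene, and all 15 kept an unadjusted p under 0.05 and their sign. With run and score together, 0 genes passed (1042 at an unadjusted p under 0.05), and 64 of 69 higher genes had a positive slope. The median score was 1.00 in low and 1.25 in high zileuton livers, and with it in the model 89 genes passed between them, 75 of the 80 among them.

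Other genes rose or fell with Cyp4a14 in vehicle livers and did not pass between the zileuton groups. Gstm1, a mu class glutathione transferase, rose by 0.18 ± 0.035 (SE, adjusted p = 0.0119) and Cyp2a5, a drug-metabolising P450, by 0.34 ± 0.072 (SE, adjusted p = 0.0142), against high minus low differences of 0.43 ± 0.18 and 0.40 ± 0.25. Without vehicle replicate 15 neither passed, with slopes of 0.13 and 0.31. Cyp2c55, another P450, ran from 0.845 to 234 (median 3.56) CPM and rose by 0.56 ± 0.11 (SE, adjusted p = 0.0132), but by 0.27 and past the threshold no longer without vehicle replicate 37, and its high minus low difference was -0.044 ± 0.36. Of the lists and over all tested members, 5 of 26 CAR and PXR targets and 4 of 19 NRF2 targets rose, beside 0.332% of all genes tested. Abcc3, which did pass between the zileuton groups, was among the 5. Without vehicle replicate 15, 4 of those 5 and all 4 of the others lost their call, and without replicate 37, 4 of the 5. With run 3 and 1 of the targets in these lists passed, and with the clock score 0 and 0. In the other direction, 3 of 17 acute phase genes (Saa2, Apcs and Hpx) and 2 of 3 neutrophil markers (S100a8 and S100a9) fell, beside 0.152% of all genes tested. Without vehicle replicate 9 none of these falling genes passed, the slopes of S100a8 and S100a9 then being -0.070 and -0.12, and Hpx lost its call without any 1 of 21 livers and Apcs without any 1 of 5. Saa2 ran from 3.28 to 2869 (median 17.2) CPM, had a slope of -0.57 ± 0.13 (SE, adjusted p = 0.028), and did not pass without vehicle replicate 9, 15 or 37, where its slope was -0.24, -0.57 and -0.56. Bglap3, an osteocalcin-related gene with a median of 0.309 CPM and a maximum of 291, had the largest slope, 1.41 ± 0.18 (SE, adjusted p = 3.50e-05), and one of 0.48 that did not pass without vehicle replicate 15. The difference between the vehicle slopes and the zileuton differences was not tested.

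Set beside vehicle, RNA of the mitochondrial and of the peroxisomal beta-oxidation genes in low livers was by list median near the vehicle level, while Cpt2 lay below it. The low, middle and high groups were each compared with the same 41 vehicle livers, so the values share their controls and, the groups being formed by Cyp4a14, are a description. The clock score also lay apart, with a median of -1.54 in vehicle against 1.00 in low and 1.25 in high livers, and its part in these values was not tested. Run, which held low and high livers unevenly, was not in these models, and its part was not tested either. Counted from the start of their runs, all vehicle animals stood at places 13 to 20. The low, middle and high animals stood at places 27 to 47, 25 to 48 and 26 to 50. No vehicle animal shared a place with a zileuton animal, so place and drug cannot be told apart in these values. In low, middle and high livers 1573 (11.4%), 2449 (17.8%) and 3188 (23.2%) of 13762 genes passed against vehicle. Hadha had a log2 difference from vehicle of -0.062 ± 0.052 in low, 0.24 ± 0.050 in middle and 0.32 ± 0.051 in high livers. Acadl stood at -0.019 ± 0.057, 0.26 ± 0.055 and 0.36 ± 0.056. Over the 17 mitochondrial genes the median difference was -0.055 in low and 0.31 in high livers, beside -0.0014 and -0.013 over all genes. Over the 14 tested peroxisomal genes the median difference was 0.025 in low and 0.56 in high livers. Ehhadh stood at log2 values of 0.47 ± 0.21, 1.44 ± 0.20 and 1.84 ± 0.20, and Cyp4a10 at 0.57 ± 0.24, 1.72 ± 0.22 and 2.07 ± 0.23.

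Some genes lay below vehicle in the low livers. Plin2 stood at -0.50 ± 0.13 in low, 0.057 ± 0.12 in middle and 0.30 ± 0.12 in high livers, and 1 low and 13 high livers lay above the vehicle median. Cpt2 stood at -0.33 ± 0.077, 0.17 ± 0.074 and 0.21 ± 0.075. Crot, the carnitine octanoyltransferase, stood at -0.35 ± 0.11, -0.15 ± 0.10 and -0.068 ± 0.10. The fasting targets Pdk4 and Fgf21 lay below vehicle in low and high livers, Pdk4 at -1.03 ± 0.29 and -0.82 ± 0.29 and Fgf21 at -1.80 ± 0.39 and -2.06 ± 0.40. Cyp1a2 and Cyp2c55, P450s of other inducible pathways, lay above vehicle in low and high livers, by 0.98 ± 0.14 and 0.98 ± 0.14 for Cyp1a2 and 2.70 ± 0.44 and 2.65 ± 0.44 for Cyp2c55. Hcn3 was near vehicle in low livers (-0.032 ± 0.20) and below it in high livers (-1.05 ± 0.22), and so was Lgals8 (-0.061 ± 0.056 and -0.36 ± 0.057). Apof stood at -0.16 ± 0.063 in low and -0.47 ± 0.064 in high livers.

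**Figure D5:**
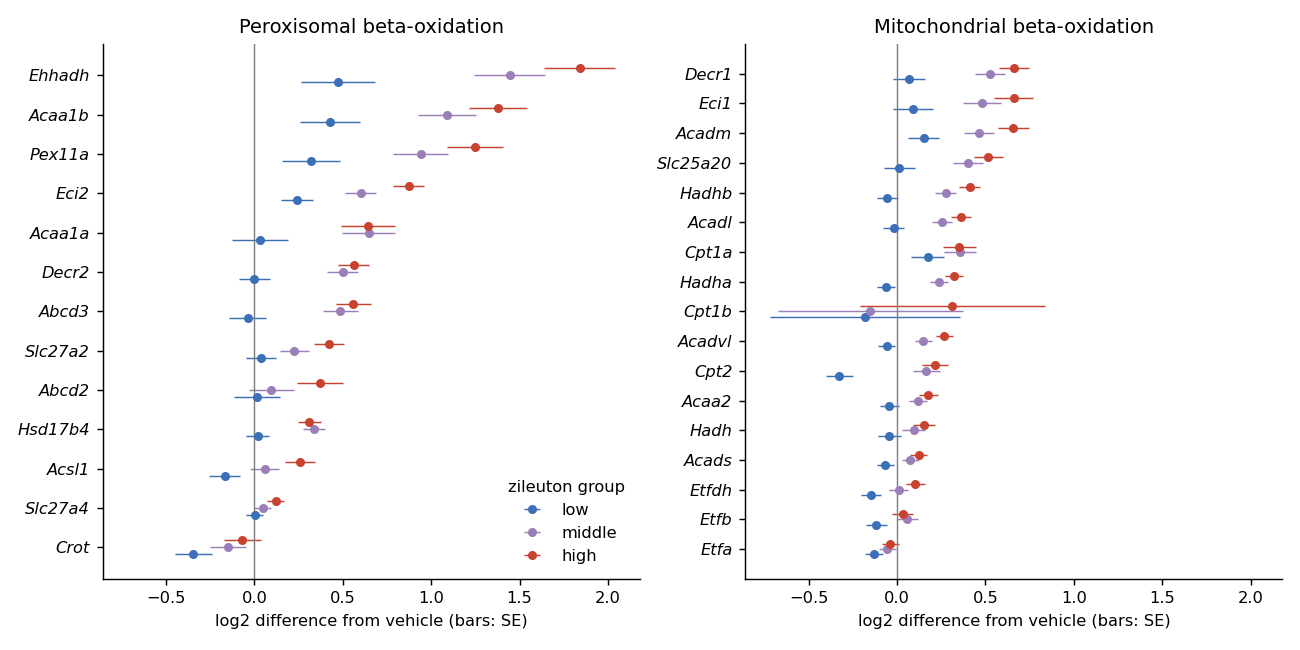
Log2 difference from 41 vehicle livers (points, with SE bars) of the low (blue), middle (purple) and high (red) zileuton groups for tested genes of peroxisomal and mitochondrial beta-oxidation. In the mitochondrial panel most low points lie near 0, Cpt2 lies to the left of it, and the high points lie to the right for most genes.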

How the data were processed

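Liver RNA of 90 female mice was sequenced, 1 library each. The deposited raw table holds estimated counts per gene and the deposited normalized table a signal that equals the rounded counts divided by 1 factor per animal. Per the submitters' processing notes, Partek, STAR, DESeq2 and mm10 were used; the counting step is not given in the sources used here. Of the authors' raw count values, 76.7% are whole; all were rounded here before testing, and 18223 genes are in each table.

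Animals were ranked by normalized Cyp4a14 and 16 taken from each end. The members and gene lists were chosen with earlier results of these data known. Genes passing filterByExpr were tested with edgeR 4.0.16 in R 4.3.3 (TMM scaling, robust quasi-likelihood F test, Benjamini-Hochberg adjusted p under 0.05), and CPM use TMM factors over all 90 libraries. Fits were high against low, the slope on log2 Cyp4a14 in vehicle livers and in zileuton livers, and each group against vehicle. Log2 CPM values, used for the Cyp4a14 slope term, the clock score and the rank correlations, carry a prior count of 2. Log2 differences and slopes are edgeR estimates without that setting. Their SE was derived from the estimate and its F statistic. The biological coefficient of variation, from the common dispersion, was 30.6% and 32.9% in the first and second fit. With 16 and 16 or 41 livers, this limits the precision. Nothing in the labels says whether animals shared a cage or litter. The fits were tested on simulated counts drawn without any effect of run or clock, so that test does not bear on either.

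Named genes are the tested members of the fatty acid and PPARalpha lists. To these were added, among called genes with a mean of at least 1 CPM, the 12 largest differences in each direction and the 3 of lowest p. In each other list the 2 largest called members, or the most abundant one where none was called, were named. The 10 largest called vehicle slopes in each direction, the 5 highest and 5 lowest rho over 49 livers and tested genes within 1 Mb were also named. Cyp4a14 is never named as a result. Genes named outside this rule, chosen after their values were seen, are Retsat, Ech1, Hsd17b11, Aldh3a2, Pctp, 5031439G07Rik, Apcs, Hpx and Arel1. Alternatives were DESeq2 1.42.0, limma-voom (limma 3.58.1) with quality weights, other scaling, filters, group sizes and covariates, and each animal left out. Gene positions are from GENCODE M21 (GRCm38, the mm10 build). A few items are not reported here.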

Additional observations from a re-analysis of the deposited data

How the results depend on the processing

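Between high and low livers, the 80 calls became 175 with no low-count filter (99 higher), 243 with DESeq2 (177 higher), 149 with 12 against 12 livers and 249 with the slope over 49. They became 0 with run in the model, 18 with the slope and run, and, as alternatives chosen after seeing the data along with that slope, 4 without runs 5, 6 and 8, 0 without runs 3 and 4 (967 at an unadjusted p under 0.05) and 0 in run 4 alone (1285). Fewer animals entered the last fits; otherwise the cause was not tested. In run 4 alone Pex11a was at -0.24, Abcc4 at -0.17 and Arel1 at -0.0084, against a positive sign over the 32 livers, and the other 77 kept theirs. Leaving out 1 animal gave 55 (without zileuton replicate 15) to 141 (without replicate 43) calls. Size factors, limma-voom, ranking by CPM, 24 against 24, coat colour, position in the run, clock score, total count and leaving out the 4 smallest libraries gave 56 to 111. Of the 80, 51 kept their call whichever animal was left out.

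In vehicle livers, the 67 calls became 102 with no filter, 27 with limma-voom, 273 with DESeq2 (124 rising), 24 with run, 3 with the clock score and 29 without the 2 animals farthest in Cyp4a14. They became 8 without the 2 animals highest in it and 0 with run and clock score together (1042 at an unadjusted p under 0.05), both chosen after seeing the data. Leaving out 1 animal gave 18 (without vehicle replicate 15) to 112 (without replicate 25), and 6 of the 67 were never lost. Size factors, coat colour and position gave 65 to 73. The counts against vehicle and the label comparisons kept their side of each threshold. No paired analysis was possible because replicate numbers follow the animal order and pair no animals.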
